A study of Mus musculus with 9 samples.

Results

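The genes described here are 33 genes of the unfolded protein response and of protein folding in the endoplasmic reticulum (ER), followed through the loss of Pcgf6 in mouse intestinal crypts. They were taken by symbol as a list of 8 transcription factors and sensors, 10 chaperones and cofactors, 4 protein disulfide isomerases, 1 subunit of the translocon, 7 genes of ER-associated degradation and 3 targets of Atf4. All 33 were among the 55341 genes of the count tables, and all 33 were among the 16250 that passed the filter on low counts.

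Crypts, the glandular pits that hold the stem cells of the gut lining, came from small intestines of C57BL/6 males between 8 and 12 weeks old, and their RNA was sequenced by Smart-seq2, which copies full-length polyadenylated transcripts. In AhCre KO mice (2 libraries) Pcgf6 was deleted with AhCre, a Cre recombinase under the Cyp1a1 promoter that beta-naphthoflavone (BNF) induces, and the AhCre WT mice (2 libraries) are labelled with the same driver and agent. In Villin KO mice (2 libraries) Pcgf6 was deleted with Villin-CreERT2, a Cre under the promoter of the gut epithelial gene Villin that tamoxifen (TAM) releases into the nucleus, and the Villin WT mice (3 libraries) are labelled with that driver and tamoxifen. The titles give 15 days after induction while a second label and the design text give 7, and BNF is also named in a description of the Villin samples. Both drivers delete in a share of the cells of a crypt that the labels do not give, and the labels do not say whether WT mice carried Cre.

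Proteins that are secreted or sit in membranes enter the ER through the translocon and are folded there by chaperones such as BiP (Hspa5) and by protein disulfide isomerases, which form and rearrange disulfide bonds. When unfolded proteins build up, the sensors IRE1, PERK and ATF6 start the unfolded protein response: IRE1 splices the Xbp1 mRNA, PERK raises the translation of Atf4, and ATF6 is cut to release a transcription factor, so that chaperones, degradation genes and stress genes are transcribed. In the gut this pathway is known for its weight in Paneth and goblet cells, which secrete antimicrobial proteins and mucus. A count per gene does not tell spliced from unspliced Xbp1 mRNA, nor does it measure the cleavage of ATF6 or the translation of Atf4.

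The promoters below show the letters through which these branches are known to reach their genes. The ER stress response element (ERSE) is CCAAT, then 9 bases of any kind, then CCACG, read by NF-Y at its first end and by ATF6 at its other end, and ERSE-II is ATTGG, then 1 base of any kind, then CCACG. Promoter sequence was that of RefSeq on GRCm38.p6, 250 bases before the transcript start, with position -1 as the last base before it. Of the 33 genes 27 had an entry (30 entries, among 32851 in all); Atf6, Ern2, Creb3l1, Hyou1, Manf and Derl1 were not matched. Searched on both strands, ERSE was found in 8 of the 30 entries (26.7%), from 8 genes, and in 0.113% of all entries. The genes were listed for their part in this response, so the higher share describes the list and is no test. For 27 of the 30 entries the bases that follow were in an annotated transcript of the gene. For Dnajc3 they were not, so its start is less certain. Among the matched chaperone and degradation genes Dnajb9, Dnajb11, Sdf2l1, Sel1l, Edem1 and Derl2 had no full match in the window. In Herpud1 a site that began at -18 matched up to the end of the window at -1. Its last base lies outside, so the search cannot tell whether Herpud1 holds ERSE. The 9 sites of those 8 genes are shown as the motif reads, with the fixed letters in capitals and the spacer in lower case. ERSE is shown because it is the element by which the response is best known.
Hspa5: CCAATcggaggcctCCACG
Calr: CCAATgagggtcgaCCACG
Canx: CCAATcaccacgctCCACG
Hsp90b1 far site: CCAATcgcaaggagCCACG
Hsp90b1 near site: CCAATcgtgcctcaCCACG
Pdia6: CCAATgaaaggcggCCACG
Dnajc3: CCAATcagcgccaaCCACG
Syvn1: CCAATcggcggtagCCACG
Derl3: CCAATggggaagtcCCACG

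The sites began at -65 in Hspa5, -162 in Calr, -145 in Canx, -212 and -107 in Hsp90b1, -98 in Pdia6, -105 in Dnajc3, -44 in Syvn1 and -156 in Derl3. With the last base of the motif left out, 12 of 30 entries matched, against 0.320% of all entries, and the CCAAT box alone was in 22 entries (73.3%), against 33.8%. ERSE-II was found in Herpud1 at -52 and in no other matched member, and in 0.0304% of all entries. The UPR element TGACGTGG (0.563% of all entries), the XBP1 core ACGTGTC (1.14%) and the amino acid response element TGATGCAAT, the site of ATF4 and C/EBP dimers (0.167%), were in 0 of the 30 entries. A relaxed form of the last, TGATGNAAN, was in 3 of 30 entries, of Chac1, Asns and Herpud1, against 3.44% of all, and the CRE core ACGTCA was in 3 of 30, against 6.47%. A match describes letters in this window and no binding was measured.

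Whole promoters are printed for the 2 genes called below, Herpud1 and Trib3, and for Hspa5 as the gene most used to read ER stress. In Herpud1 (chr8:94386179-94386428, plus strand, GRCm38) capitals mark, from the start, the relaxed amino acid response element on the other strand, ERSE-II and the ERSE that lacks its last base within the window. In Hspa5 (chr2:34771840-34772089, plus strand) they mark ERSE, and in Trib3 (chr2:152344061-152344310, minus strand, printed as transcribed) none of these motifs was found.
Herpud1: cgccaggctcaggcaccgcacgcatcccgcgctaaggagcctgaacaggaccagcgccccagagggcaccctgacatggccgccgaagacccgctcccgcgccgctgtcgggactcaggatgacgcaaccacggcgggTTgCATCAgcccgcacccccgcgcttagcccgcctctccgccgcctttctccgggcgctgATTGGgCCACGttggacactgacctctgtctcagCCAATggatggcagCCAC
Trib3: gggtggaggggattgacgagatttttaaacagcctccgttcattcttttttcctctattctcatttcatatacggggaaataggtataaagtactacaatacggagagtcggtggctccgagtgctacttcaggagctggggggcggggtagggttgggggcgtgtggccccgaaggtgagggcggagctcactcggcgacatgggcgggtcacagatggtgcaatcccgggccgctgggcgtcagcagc
Hspa5: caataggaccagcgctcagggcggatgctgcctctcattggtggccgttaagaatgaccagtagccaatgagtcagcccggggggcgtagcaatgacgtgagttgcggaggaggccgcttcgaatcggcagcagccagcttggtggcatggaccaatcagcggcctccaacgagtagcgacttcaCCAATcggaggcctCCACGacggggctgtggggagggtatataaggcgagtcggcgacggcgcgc

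The libraries held 6455098 to 12377921 counts, of which the 33 genes took 0.487% to 0.914%. Levels are given as CPM, counts relative to the library total scaled by TMM factors, where 3 counts equal 0.194 to 0.615 CPM in a library. KO was set against WT within each driver by edgeR's quasi-likelihood test, and a call needed an adjusted p (Benjamini-Hochberg, over all 16250 genes) under 0.05. Pcgf6 itself was at 7.20 and 5.90 CPM in AhCre KO crypts, against 14.1 and 10.1 CPM in AhCre WT crypts. In Villin KO crypts it was at 3.07 and 2.47 CPM, against 10.8, 12.7 and 9.44 CPM in Villin WT crypts. The AhCre libraries of a group were close to each other, with a median ratio of the higher to the lower CPM over the 33 genes of 1.14 in AhCre KO and 1.10 in AhCre WT. The Villin libraries were further apart, with a median ratio of the highest to the lowest of 1.41 in Villin KO and, over 32 genes with counts in every library, 1.79 in Villin WT. Tuft cell markers were at a summed 3807 CPM in Villin KO replicate 1 and 625 CPM in Villin KO replicate 2, so that these libraries stand apart, and values are given without either where it matters.

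Of the 33 genes, Herpud1 and Trib3 rose in Villin KO crypts, and these were the only calls of this fit in either driver. That is 2 of 33 (6.06%), beside 6.21% of all genes called in Villin (1009 genes, 541 higher and 468 lower), so the share was close to the background; both were rises, beside 3.33% of all genes. In AhCre, 0 of the 33 were called by edgeR in this fit, beside 0.00615% of all genes (1 gene). In the same fit 0 had an unadjusted p under 0.05, beside 3.53% of all genes. DESeq2's Wald test called 0 of the 33 in AhCre and 4 of the 33 in Villin (Herpud1, Trib3, P4hb and Sel1l), beside 0.449% and 10.7% of all genes. The chaperones most used to read ER stress, Hspa5, Hsp90b1, Calr and Hyou1, passed the test in neither driver. Because the libraries are from bulk crypts, fewer cells of a type and less RNA per cell cannot be told apart.

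**Figure D1:**
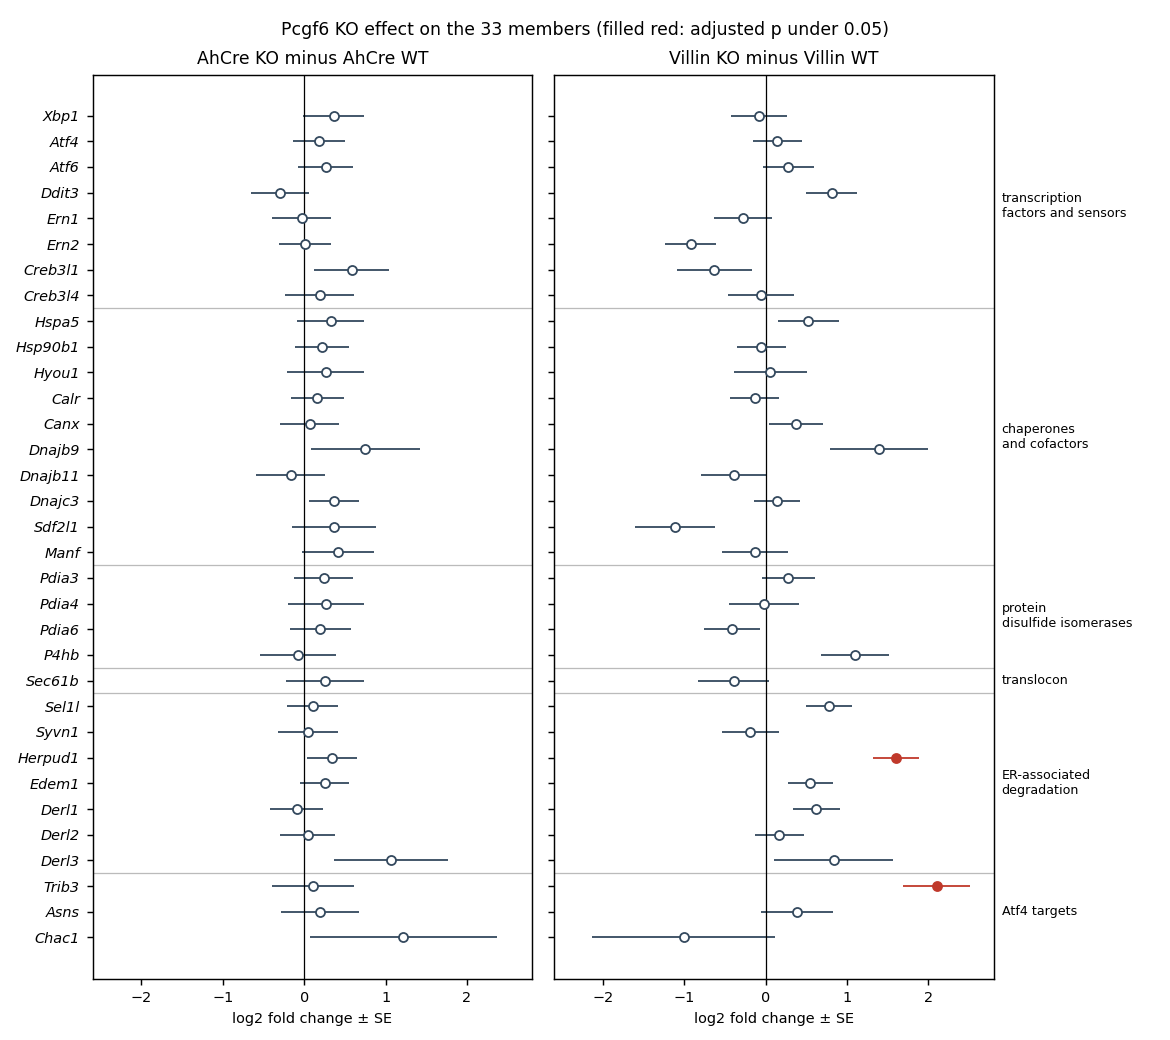
Fitted log2 fold change (point) with its SE (bar) of the 33 genes, AhCre KO minus AhCre WT on the left and Villin KO minus Villin WT on the right, grouped by role. Filled red points mark an adjusted p under 0.05, which Herpud1 (1.60) and Trib3 (2.10) reached in Villin and no gene reached in AhCre.

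Herpud1, whose product sits in the ER membrane and helps to assemble the degradation complex around HRD1, changed with the smallest p of the 33. It had 122 and 123 CPM in AhCre KO crypts, against 95.8 and 97.0 CPM in AhCre WT crypts. With Villin-CreERT2, KO crypts had 371 and 369 CPM, against 113, 101 and 151 CPM in Villin WT crypts. Both KO libraries lay above all WT libraries of their driver, with a fold of 1.27 between the AhCre groups and 3.04 between the Villin groups. In Villin the log2 fold change was 1.60 with an SE of 0.28 (95% interval 1.00 to 2.21, edgeR adjusted p = 0.0120). In AhCre it was 0.34 with an SE of 0.31 (95% interval -0.33 to 1.02, edgeR adjusted p = 1), and the mean of both effects was 0.97 with an SE of 0.21 (edgeR adjusted p = 0.0488). The mean of both effects called 1.17% of all genes, and Herpud1 was the only one of the 33. The gene lies at chr8:94386438-94395377 on the plus strand of GRCm38 and shares no exon bases with another gene. The Villin call was lost without Villin KO replicate 1 (adjusted p = 0.0583, log2 fold change 1.62) and in a fit blocked on replicate numbers with those of AhCre crossed, which was chosen after seeing the data (adjusted p = 0.0600), and that of the mean was lost when any 1 of the AhCre libraries, Villin KO replicate 1 or Villin WT replicate 1 was left out (adjusted p = 0.0873 to 0.349), with the replicate block (0.101), with the crossed block (0.122) and with the stricter filter (0.0509).

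Trib3, a pseudokinase transcribed through ATF4 and CHOP and known to dampen that branch, had the largest fold change. It had 104 and 52.8 CPM in Villin KO crypts, against 24.1, 17.5 and 13.3 CPM in Villin WT crypts, from 509 and 342 counts and from 134, 136 and 69 counts. Both Villin KO libraries were above all Villin WT libraries, with KO replicate 1 the higher. The log2 fold change in Villin was 2.10 with an SE of 0.41 (95% interval 1.21 to 2.99, a 4.29-fold rise, edgeR adjusted p = 0.0172). In AhCre the gene was low, at 2.26 and 3.30 CPM in KO crypts and 1.68 and 3.51 CPM in WT crypts, and these groups overlapped. Its AhCre log2 fold change was 0.11 with an SE of 0.50 (95% interval -0.98 to 1.19, edgeR adjusted p = 1), and the mean of both effects was 1.10 with an SE of 0.33 (edgeR adjusted p = 0.149). Trib3 lies at chr2:152337422-152344032 on the minus strand of GRCm38 and shares no exon bases with another gene. Its Villin call was lost without Villin KO replicate 1 (log2 fold change 1.54, adjusted p = 0.109), without Villin WT replicate 1 (adjusted p = 0.05), by limma-voom (adjusted p = 0.0858) and with the crossed block (adjusted p = 0.0819).

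**Figure D2:**
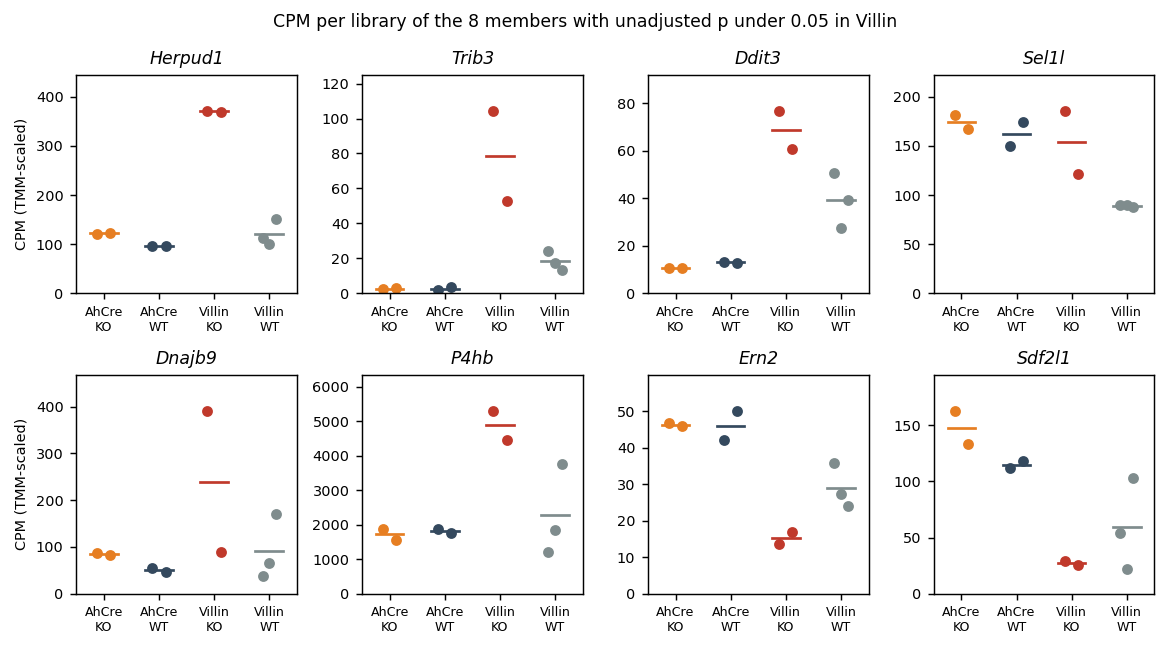
CPM in each library (points) and group mean (lines) of the 8 genes with an unadjusted p under 0.05 in Villin, on linear axes that start at 0. The Villin KO libraries of Herpud1 and Trib3 lie above all Villin WT libraries, those of Ern2 lie below, and those of Dnajb9 and Sdf2l1 overlap with them.

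Among the transcription factors and sensors, 0 of 8 were called in either driver. Ddit3 encodes CHOP, the factor downstream of Atf4 that is linked to cell death under lasting stress. It had 10.7 and 10.5 CPM in AhCre KO crypts, against 13.0 and 13.0 CPM in AhCre WT crypts. Under the Villin driver, KO crypts had 76.8 and 60.9 CPM, against 50.9, 27.6 and 39.5 CPM in Villin WT crypts. The KO libraries thus lay below the WT libraries in AhCre and above them in Villin, a pattern that 5.03% of all genes shared. Its log2 fold change was -0.30 with an SE of 0.35 in AhCre (edgeR adjusted p = 1) and 0.81 with an SE of 0.31 in Villin (edgeR adjusted p = 0.129). At chr10:127290774-127296288 on the plus strand, 68 of its exon bases (3.97%) are shared with Mars, and reads there cannot be told apart without strand.

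Ern2 encodes IRE1 beta, the form of the sensor that is restricted to mucosal epithelium. It had 13.7 and 16.8 CPM in Villin KO crypts, against 35.8, 27.2 and 24.1 CPM in Villin WT crypts. All Villin KO libraries were below all Villin WT libraries, with a log2 fold change of -0.92 and an SE of 0.31 that missed the threshold (edgeR adjusted p = 0.0903). In AhCre it had 46.7 and 46.1 CPM in KO crypts and 42.2 and 50.0 CPM in WT crypts, which overlapped. Ern1, the widely expressed IRE1 alpha, overlapped in both drivers, at 46.8 and 44.7 CPM in AhCre KO against 43.5 and 50.0 CPM in AhCre WT. In Villin it was at 13.5 and 10.6 CPM in KO crypts, against 9.17, 18.6 and 16.0 CPM in WT crypts. All AhCre libraries were above all Villin libraries for Ern1, in both genotypes.

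Xbp1, whose spliced mRNA encodes a transcription factor of ER biogenesis, had 422 and 302 CPM in AhCre KO crypts, against 291 and 271 CPM in AhCre WT crypts. In Villin KO crypts it had 191 and 115 CPM, against 202, 115 and 167 CPM in Villin WT crypts. The AhCre groups did not overlap and the Villin groups did, with log2 fold changes of 0.36 (SE 0.38) in AhCre and -0.08 (SE 0.34) in Villin. Atf4 had 75.9 and 84.7 CPM in AhCre KO against 73.8 and 67.8 CPM in AhCre WT, and 184 and 151 CPM in Villin KO against 172, 110 and 172 CPM in Villin WT. Its groups were apart in AhCre and overlapped in Villin. Creb3l1, a membrane-bound factor of the ATF6 kind, had a log2 fold change of 0.58 (SE 0.46) in AhCre and -0.63 (SE 0.46) in Villin. Atf6 itself was at 0.26 (SE 0.34) in AhCre and 0.28 (SE 0.31) in Villin. Creb3l4, of the same kind as Creb3l1, was at 0.19 (SE 0.42) in AhCre and -0.05 (SE 0.40) in Villin.

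Of the 10 chaperones and cofactors 0 were called in either driver in the fit of all libraries. Their median log2 fold change was 0.30 in AhCre with 9 of 10 above 0, and 0.00 in Villin with 5 of 10 above 0. Over all genes the median was -0.005 in AhCre, with 49.5% above 0, and -0.18 in Villin, with 41.4% above 0. Hspa5, the BiP chaperone that also holds the sensors inactive, had 751 and 810.3 CPM in AhCre KO crypts, against 669.9 and 574 CPM in AhCre WT crypts. With Villin-CreERT2, KO crypts had 767 and 1257 CPM, against 457, 641 and 1012 CPM in Villin WT crypts. The AhCre groups did not overlap, and in Villin the WT libraries alone spanned more than the distance between the group means. Its log2 fold change was 0.33 (95% interval -0.56 to 1.22) in AhCre and 0.52 (95% interval -0.28 to 1.33) in Villin.

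Dnajb9 encodes ERdj4, a co-chaperone of BiP known as a target of spliced XBP1 and as a repressor of IRE1. It had 88.0 and 82.0 CPM in AhCre KO crypts, against 55.4 and 45.7 CPM in AhCre WT crypts. Under the Villin driver, KO crypts had 390.1 and 88.7 CPM, against 38.1, 65.6 and 169 CPM in Villin WT crypts. The AhCre groups did not overlap, while the high Villin value came from KO replicate 1 and the other KO library lay within the WT range. The log2 fold change was 0.75 with an SE of 0.67 in AhCre (edgeR adjusted p = 1) and 1.40 with an SE of 0.60 in Villin (edgeR adjusted p = 0.166). Without Villin KO replicate 1 the Villin value was -0.014. When the 4 AhCre libraries were fitted alone, with a spread of their own, Dnajb9 was the only one of the 33 called in AhCre, with a log2 fold change of 0.77 (edgeR adjusted p = 0.00882) beside 6.43% of all genes. The mean of both effects was 1.07 with an SE of 0.45 (edgeR adjusted p = 0.310).

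Sdf2l1, a partner of ERdj3 in the BiP cycle, had 163 and 133 CPM in AhCre KO crypts, against 112 and 118 CPM in AhCre WT crypts. In Villin KO crypts it had 29.5 and 25.6 CPM, against 53.7, 22.3 and 103 CPM in Villin WT crypts. It was above all WT libraries in AhCre and overlapped in Villin, with log2 fold changes of 0.37 (SE 0.51) in AhCre and -1.11 (SE 0.49, edgeR adjusted p = 0.177) in Villin. The Villin value was -0.46 without Villin WT replicate 3 and -0.34 with the replicate block, and it was called without Villin WT replicate 2 (-1.40, adjusted p = 0.0477). Hyou1, an exchange factor and chaperone for BiP, was at 137 and 99.6 CPM in AhCre KO against 90.5 and 106 CPM in AhCre WT. In Villin it was far lower, at 22.5 and 24.7 CPM in KO crypts against 11.9, 15.8 and 40.9 CPM in WT crypts, and its groups overlapped in both drivers. Hsp90b1, the ER form of HSP90, had log2 fold changes of 0.22 in AhCre and -0.06 in Villin. The lectin chaperones of glycoproteins, Calr and Canx, were at 0.16 and 0.07 in AhCre and at -0.14 and 0.37 in Villin. The co-chaperones Dnajc3 and Dnajb11 were at 0.36 and -0.17 in AhCre and at 0.14 and -0.39 in Villin. Manf, a secreted ER stress factor, was at 0.41 in AhCre and -0.13 in Villin, and each of these last 6 genes had an SE of 0.28 to 0.45.

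Of the protein disulfide isomerases 0 of 4 were called in either driver. P4hb, the main isomerase and a subunit of the collagen and lipid transfer enzymes prolyl hydroxylase and MTP, had 1867 and 1565 CPM in AhCre KO crypts, against 1863 and 1757 CPM in AhCre WT crypts. With Villin-CreERT2, KO crypts had 5282 and 4463 CPM, against 1208, 1857 and 3757 CPM in Villin WT crypts. The AhCre groups overlapped and both Villin KO libraries lay above all Villin WT libraries, which themselves were 3.11-fold apart. Its log2 fold change was -0.08 with an SE of 0.47 in AhCre and 1.10 with an SE of 0.42 in Villin, where it missed the threshold by edgeR (adjusted p = 0.124) and passed by DESeq2 (adjusted p = 0.0427). Pdia3, Pdia4 and Pdia6 were at 0.24, 0.27 and 0.20 on the log2 scale in AhCre, where the KO libraries lay above the WT libraries. In Villin they were at 0.28, -0.02 and -0.41, with overlap in each. Sec61b, a subunit of the channel through which proteins enter the ER, was at 0.26 in AhCre and -0.39 in Villin (SE 0.48 and 0.44).

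ER-associated degradation, which pulls misfolded proteins out of the ER for the proteasome, was the group with the highest median in Villin among those with more than 1 gene. Its 7 genes had a median log2 fold change of 0.11 in AhCre and 0.63 in Villin. In each driver 6 of 7 were above 0, beside 49.5% of all genes in AhCre and 41.4% in Villin. Herpud1 was the 1 gene called, in Villin, beside 6.21% of all genes. Their mean log2 CPM was 6.12 and 6.01 in AhCre KO crypts, against 5.76 and 5.89 in AhCre WT crypts. In Villin KO crypts it was 6.29 and 6.20, against 5.72, 5.36 and 5.92 in Villin WT crypts. KO and WT libraries did not overlap in either driver. In AhCre the nearest were KO replicate 2 (6.01) and WT replicate 2 (5.89). Between these, Derl3, Herpud1, Edem1 and Derl2 were higher in KO, and Sel1l, Syvn1 and Derl1 were lower. Derl3, with only 42 against 28 counts, was the furthest apart on the log2 scale, so the AhCre gap leans on a scarce gene.

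Sel1l, the adaptor that feeds substrates to the ligase HRD1, had 182 and 167 CPM in AhCre KO crypts, against 149.8 and 174 CPM in AhCre WT crypts. In Villin KO crypts it had 185 and 122 CPM, against 89.5, 90.2 and 87.9 CPM in Villin WT crypts. The Villin groups were apart, with a log2 fold change of 0.78 and an SE of 0.28 (edgeR adjusted p = 0.109), and the AhCre groups overlapped (0.11, SE 0.31). Edem1, which marks glycoproteins for degradation by trimming mannose, had 61.7 and 55.9 CPM in AhCre KO against 50.0 and 48.6 CPM in AhCre WT. In Villin it had 95.5 and 70.3 CPM in KO crypts against 61.8, 57.0 and 50.9 CPM in WT crypts. Edem1 and Herpud1 were the 2 of the 33 genes (6.06%) with KO libraries above all WT libraries in both drivers, beside 3.42% of all genes. Derl1, a membrane protein of the export channel, had 308 and 224 CPM in Villin KO crypts, against 154, 157 and 207 CPM in Villin WT crypts (log2 fold change 0.62, SE 0.29), and -0.09 (SE 0.32) in AhCre. Its relative Derl2 was at 0.04 in AhCre and 0.17 in Villin, and Syvn1, which encodes HRD1 itself, was at 0.05 in AhCre and -0.19 in Villin. Derl3, the secretory form, was scarce, with 49 and 42 counts in AhCre KO libraries against 24 and 28 in AhCre WT libraries. It had 4 and 22 counts in Villin KO libraries against 7, 3 and 11 in Villin WT libraries, with overlap in Villin only.

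The other targets of Atf4 on the list passed the test in neither driver. Asns, which makes asparagine, had 77.5 and 85.7 CPM in AhCre KO crypts, against 69.1 and 73.2 CPM in AhCre WT crypts. With Villin-CreERT2, KO crypts had 28.1 and 79.6 CPM, against 24.4, 38.5 and 61.5 CPM in Villin WT crypts, with overlap (log2 fold change 0.38, SE 0.44). Chac1, which breaks down glutathione, had 22 and 17 counts in AhCre KO libraries against 11 and 9 in AhCre WT libraries. It had 11 and 4 counts in Villin KO libraries against 12, 0 and 34 in Villin WT libraries, so that its log2 fold changes of 1.22 (SE 1.15) and -1.01 (SE 1.12) are loosely fixed.

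**Figure D3:**
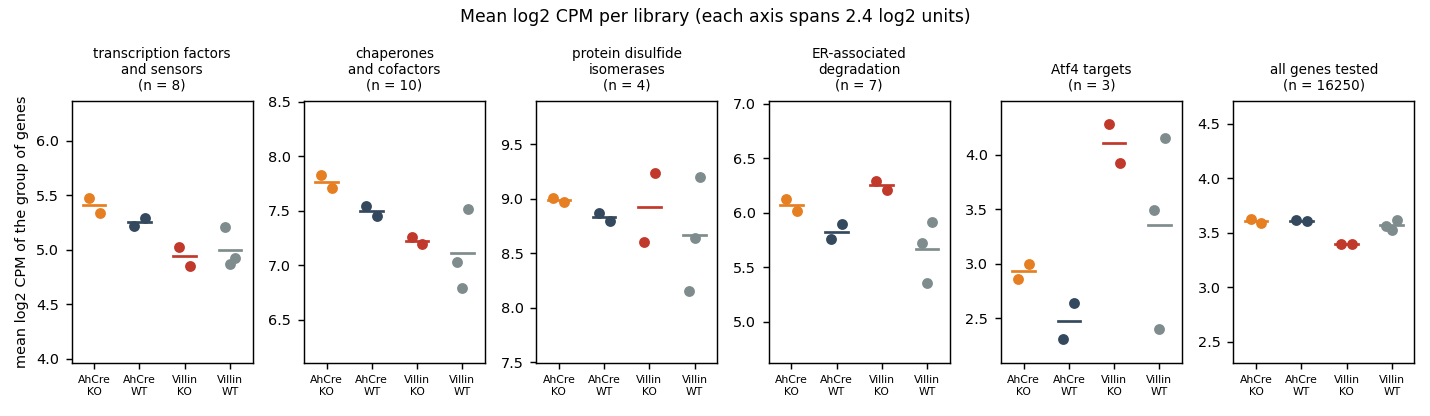
Mean log2 CPM (prior count 2) of each role group and of all 16250 genes tested, 1 point per library and a line at the group mean, with every axis spanning the same log2 distance. The Villin KO libraries of ER-associated degradation (6.29 and 6.20) lie above the Villin WT libraries (5.36 to 5.92), while those of all genes (3.40 and 3.40) lie below the Villin WT libraries (3.53 to 3.62).

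Over the whole list, counts and medians were taken in each driver. In AhCre 28 of 33 genes (84.8%) had a fitted log2 fold change above 0, with a median of 0.22, and 18 (54.5%) had both KO libraries above both WT libraries, beside 23.4% of all genes. Ddit3 was the 1 gene below, beside 25.1% of all genes. In Villin 18 of 33 were above 0, with a median of 0.14, and 7 (Ddit3, P4hb, Sel1l, Herpud1, Edem1, Derl1 and Trib3) had both KO libraries above all WT libraries, beside 14.5% of all genes. Ern2 was the 1 gene below, beside 19.8% of all genes, and 8 of the 33 had an unadjusted p under 0.05, beside 26.1%. The mean log2 CPM of the 33 was 6.57 and 6.49 in AhCre KO libraries against 6.27 and 6.32 in AhCre WT libraries. In Villin it was 6.42 and 6.40 in KO libraries against 6.18, 5.86 and 6.49 in WT libraries, which overlapped. These are descriptions, since the 33 genes share libraries and none of the AhCre effects passed the test in the fit of all libraries. With the AhCre libraries fitted alone Dnajb9 was called, beside 6.43% of all genes. The number of the 33 with an unadjusted p under 0.05 in AhCre also depended on the fit. It was 0 in the fit of all libraries, 10 with the AhCre libraries alone and 4 by limma-voom. With DESeq2 size factors the median of all genes in Villin was -0.08 in place of -0.18, the calls over all genes were 704 higher and 388 lower in place of 541 and 468, and 22 of the 33 were above 0 with a median of 0.25.

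The difference between the drivers was tested directly as the AhCre KO effect minus the Villin KO effect. It called 0 of the 33 genes by edgeR, beside 0.0738% of all genes (12), and 3 of the 33 had an unadjusted p under 0.05, beside 15.9% of all genes. DESeq2 also called 0 of the 33. Over the list 19 of 33 differences (57.6%) were above 0, beside 57.1% of all genes, and the median was 0.22, beside 0.18 over all genes. Those 3 genes were Trib3 (-1.99, SE 0.65, edgeR adjusted p = 0.199), Herpud1 (-1.26, SE 0.42, edgeR adjusted p = 0.203) and Ddit3 (-1.11, SE 0.47, edgeR adjusted p = 0.284). The rise of Herpud1 and Trib3 in Villin is therefore not shown to differ from AhCre.

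Levels were compared between genes as RPKM, the CPM divided by the exon length in kilobases. P4hb was first of the 33 in every group, at a mean of 599.8 RPKM in AhCre KO, 633 RPKM in AhCre WT, 1703 RPKM in Villin KO and 795 RPKM in Villin WT. Herpud1 stood at rank 12 in AhCre KO and 13 in AhCre WT, and at rank 5 in Villin KO and 12 in Villin WT, at 159 RPKM in Villin KO against 52.2 RPKM in Villin WT. Trib3 stood at rank 17 in Villin KO and 26 in Villin WT, at 37.0 RPKM in Villin KO against 8.60 RPKM in Villin WT. Chac1 and Derl3 were among the lowest 3 genes in every group. Some neighbours in the order lay apart beyond their SD: in AhCre WT, Herpud1 (41.3 ± 0.361 RPKM) stood above Dnajc3, the next gene (32.4 ± 0.0275 RPKM, SD, n = 2). The Villin WT libraries varied over 2-fold in 13 of 32 genes, so the order in that group is loosely fixed.

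**Figure D4:**
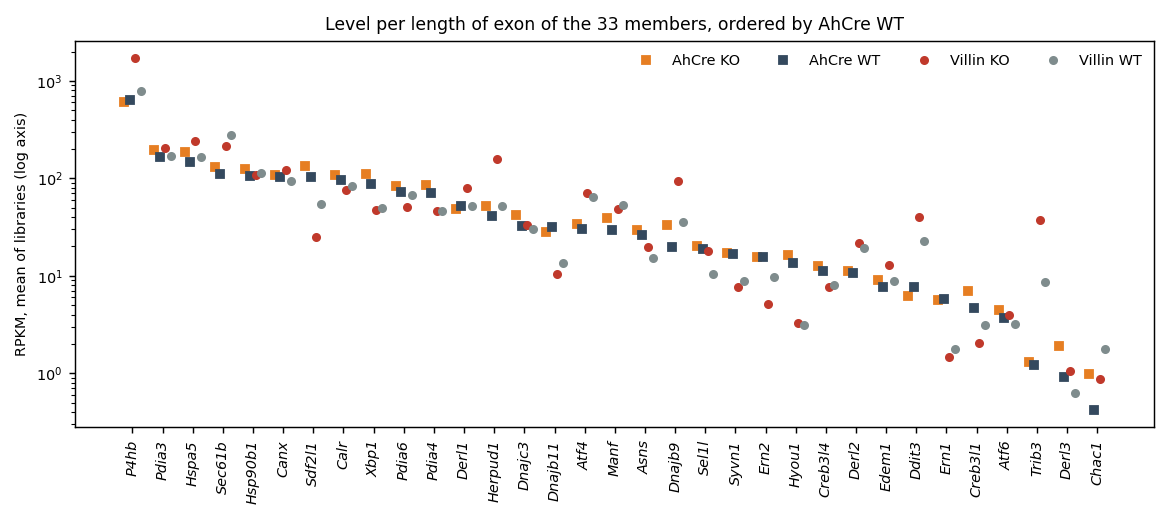
Mean RPKM of each group for the 33 genes on a log axis, ordered by AhCre WT. P4hb stands above all others in every group, and Trib3 lies at 37.0 RPKM in Villin KO and 8.60 RPKM in Villin WT, with both AhCre groups at 1.31 RPKM or less.

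Genes with and without the ERSE letters shown above changed as follows. The 8 genes with ERSE had a median log2 fold change of 0.21 in AhCre, with 8 of 8 above 0, and 0.04 in Villin, with 4 of 8 above 0 and 0 called. The 19 matched genes without a full match in the window had 0.20 in AhCre, with 15 above 0, and 0.17 in Villin, with 11 above 0 and 2 called. These 2 were Herpud1 and Trib3. The window cuts the ERSE site of Herpud1 before its last base, so the place of Herpud1 in this group is not settled. The counts of calls with and without ERSE therefore cannot be compared. Herpud1 holds ERSE-II and Trib3 holds none of the motifs searched.

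The pathway reaches beyond these 33 genes, and 6 further lists were counted. Of their 139 tested genes 9 were called in Villin (6.47%), beside 6.21% of all genes, so the lists together were at the background. ER to Golgi transport, the coat and cargo proteins that carry folded proteins onward, had 20 genes tested, of which 3 rose in Villin, beside 3.33% of all genes, and 17 were above 0, with a median log2 fold change of 0.57; 9 of 20 had an unadjusted p under 0.05, each higher, beside 10.7% of all genes. In AhCre it had 0 called, 7 of 20 above 0 and a median of -0.10. The genes that rose encode coat subunits and a cargo receptor. Sec24d, a subunit that picks cargo, had 406 and 269.9 CPM in Villin KO crypts, against 88.3, 125 and 167 CPM in Villin WT crypts (log2 fold change 1.41, SE 0.34, edgeR adjusted p = 0.0329). Sec23b, its partner in the coat, had 245 and 203 CPM in Villin KO crypts, against 62.0, 104 and 103 CPM in Villin WT crypts (1.32, SE 0.30, edgeR adjusted p = 0.0289). Surf4, a receptor for soluble cargo, had 1578 and 1072 CPM in Villin KO crypts, against 508.8, 580.1 and 535 CPM in Villin WT crypts (1.29, SE 0.30, edgeR adjusted p = 0.0300). For each of these the Villin KO libraries were above all Villin WT libraries, as for 14.5% of all genes. These genes were named because they were called, so their separation was selected.

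Among 17 genes of UPR signalling, 2 rose in Villin, beside 3.33% of all genes, and the median was 0.34 with 10 of 17 above 0. In AhCre 0 were called, 7 of 17 were above 0 and the median was -0.04. Creb3l3, a membrane-bound factor of liver and gut that controls lipid genes, had 1406 and 965 CPM in Villin KO crypts, against 512, 454 and 434 CPM in Villin WT crypts (1.35, SE 0.29, edgeR adjusted p = 0.0251). In AhCre it was at 118 and 140.0 CPM in KO crypts, against 190.2 and 186 CPM in WT crypts. The KO libraries of Creb3l3 were thus above WT in Villin and below WT in AhCre. Ppp1r15b, which helps to undo the phosphorylation of eIF2 alpha by PERK, had 384 and 186 CPM in Villin KO crypts, against 96.5, 119 and 136 CPM in Villin WT crypts (1.28, SE 0.34, edgeR adjusted p = 0.0477).

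Of the 28 genes of the ATF4 and amino acid response 27 were tested, 2 rose and 1 fell in Villin, beside 6.21% of all genes called, and the median was -0.01. In AhCre 0 were called and the median was 0.03. Slc3a2, the heavy chain of amino acid transporters, had 809.9 and 927 CPM in Villin KO crypts, against 351, 362 and 358 CPM in Villin WT crypts (1.28, SE 0.27, edgeR adjusted p = 0.0224). Atf3, a stress-induced factor, had 116 and 65.7 CPM in Villin KO crypts, against 17.97, 11.7 and 46.2 CPM in Villin WT crypts (1.85, SE 0.48, edgeR adjusted p = 0.0438). Vldlr, a lipoprotein receptor, fell to 1.84 and 0.926 CPM in Villin KO crypts, against 7.19, 6.67 and 3.66 CPM in Villin WT crypts (-2.10, SE 0.56, edgeR adjusted p = 0.0461). Of 21 further genes of ER-associated degradation 17 were above 0 in Villin, beside 41.4% of all genes. Their median was 0.33, beside -0.18 over all genes. The 1 gene called, beside 6.21% of all genes, was Ube2j1, a ubiquitin-conjugating enzyme of that path, which rose (1.12, SE 0.28, edgeR adjusted p = 0.0382). In AhCre 9 of the 21 were above 0 with a median of -0.02, and their mean log2 CPM overlapped, at 6.03 and 5.95 in KO libraries against 5.95 and 5.98 in WT libraries. Ube2j1 had 83.3 and 70.3 CPM in AhCre KO crypts against 58.2 and 56.5 CPM in AhCre WT crypts. In Villin it had 152 and 117 CPM in KO crypts against 68.5, 51.4 and 65.9 CPM in WT crypts.

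The 2 lists nearest to folding itself had no call. Of 29 tested genes of ER folding and disulfide formation 0 were called in Villin by edgeR, beside 6.21% of all genes, with a median of -0.12. An unadjusted p under 0.05 was reached by 7 of the 29, 3 higher and 4 lower, beside 26.1% of all genes. Txndc5, a disulfide isomerase, was at -1.07 (SE 0.39, edgeR adjusted p = 0.107) in Villin, and Ero1lb, an oxidase, at 1.47 (SE 0.54, edgeR adjusted p = 0.116). Of 25 genes of translocation, signal peptidase and glycosylation 0 were called in Villin by edgeR, with a median of 0.01. An unadjusted p under 0.05 was reached by 2 of these 25, beside 26.1% of all genes. Srpr and Ssr1 had the smallest p for the mean of both effects, and were at 0.77 (SE 0.28) and 0.67 (SE 0.31) in Villin. In AhCre, in the fit of all libraries, 0 genes of the 6 lists were called by edgeR, beside 0.00615% of all genes. In that fit 0 had an unadjusted p under 0.05, beside 3.53% of all genes. The 9 Villin calls over the 6 lists became 0 without any 1 of the 4 AhCre libraries, Villin KO replicate 1 or Villin WT replicate 1, and 18 without Villin KO replicate 2. They were 0 by limma-voom, 0 with the Villin libraries alone and 21 by DESeq2.

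**Figure D5:**
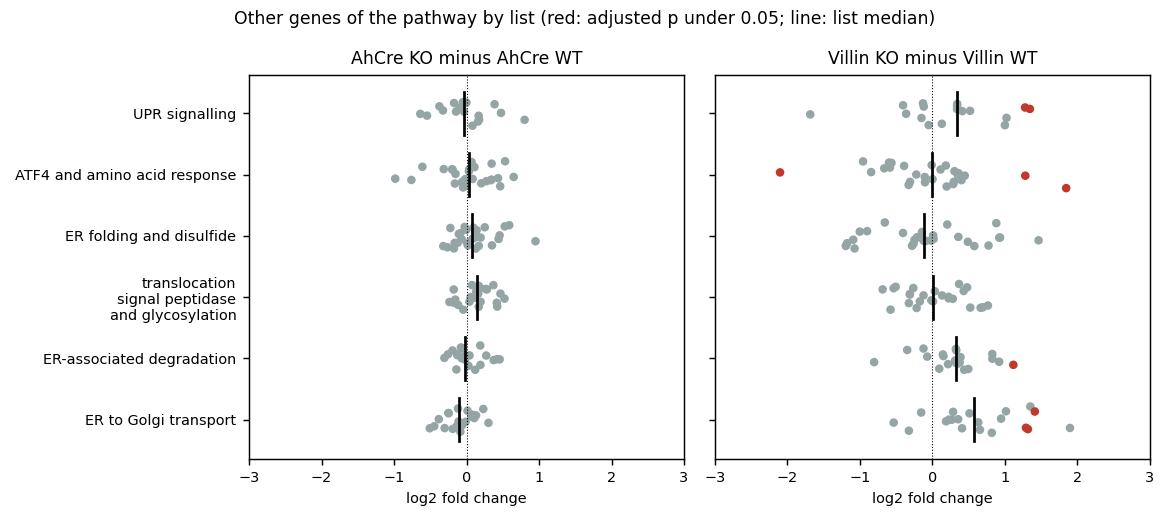
Fitted log2 fold change of each tested gene of the 6 further lists (points) with the list median (line), AhCre KO minus AhCre WT on the left and Villin KO minus Villin WT on the right. Red points have an adjusted p under 0.05: 8 higher and 1 lower in Villin and 0 in AhCre, and the ER to Golgi list has the highest median in Villin, 0.57.

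Markers of the cell types that these crypts can hold moved with the groups, and their part in the results was not tested. All lists had every gene in the files. The 12 absorptive enterocyte markers summed to 9461 and 9208 CPM in AhCre KO libraries against 11745 and 10464 CPM in AhCre WT libraries. In Villin they summed to 63263 and 43769 CPM in KO libraries against 32898, 20079 and 33509.6 CPM in WT libraries. Their sum was thus lower in KO in AhCre and higher in KO in Villin, and higher in all Villin libraries than in all AhCre libraries. This order of the drivers did not hold for every marker singly, such as Anpep and Lct. The 11 Paneth cell markers summed to 14673 and 15622 CPM in AhCre KO libraries against 8555 and 7606.5 CPM in AhCre WT libraries, and overlapped in Villin, at 4666 and 10867 CPM in KO against 9574, 2435 and 17792 CPM in WT. The 12 goblet cell markers overlapped in sum in both drivers, at 6986 and 6819 CPM in AhCre KO against 6412 and 7243 CPM in AhCre WT, and at 7898 and 6610.4 CPM in Villin KO against 9826, 3206 and 10354 CPM in Villin WT. Singly, 6 of the 12 had both AhCre KO libraries above both AhCre WT libraries (Clca1, Spink4, Spdef, Atoh1, Klk1 and Ramp1) and 2 below (Fcgbp and Zg16). Of all genes, 23.4% were above and 25.1% below in AhCre. In Villin 2 of the 12 were above and 0 below, beside 14.5% and 19.8% of all genes. Villin WT replicate 2 was the lowest library in both of these lists. The ER genes were mixed in this respect. Within Villin WT, replicate 2 was the lowest for some of them, such as Sdf2l1, Manf and Sec61b. For others, such as Hspa5, P4hb, Dnajb9, Canx, Pdia3 and Pdia4, replicate 1 was the lowest.

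The 12 tuft cell markers summed to 1056 and 987 CPM in AhCre KO against 188 and 184 CPM in AhCre WT, and to 3807 and 625 CPM in Villin KO against 131, 92.1 and 203 CPM in Villin WT. The 12 stem cell and proliferation markers summed to 595 and 1857 CPM in Villin KO against 1463, 2994 and 2761 CPM in Villin WT, and to 3027 and 3183 CPM in AhCre KO against 3076 and 2444 CPM in AhCre WT. Singly, 6 of the 12 were below all WT libraries in Villin (Lgr5, Axin2, Slc12a2, Mki67, Top2a and Ccnb1), beside 19.8% of all genes. None was above, beside 14.5% of all genes. In AhCre 3 were above and 2 below, beside 23.4% and 25.1% of all genes. The 12 plasma and B cell markers, of cells that carry a large ER, summed to 281 and 277 CPM in AhCre KO against 239 and 239 CPM in AhCre WT, and to 900.0 and 765 CPM in Villin KO against 504, 206 and 827 CPM in Villin WT. Of these, Tnfrsf17 was at 0 in both AhCre KO libraries, in Villin KO replicate 2 and in Villin WT replicate 3, and Mzb1 was at 0 in Villin WT replicate 1 and at 3.28 CPM or less elsewhere. The 12 enteroendocrine markers summed to 589 and 699.5 CPM in AhCre KO against 745 and 759 CPM in AhCre WT, and to 1026 and 831 CPM in Villin KO against 867, 268 and 1029 CPM in Villin WT. The 12 leukocyte markers summed to 682 and 728 CPM in AhCre KO against 613 and 653 CPM in AhCre WT, and to 449 and 2835 CPM in Villin KO against 1368, 588 and 3662 CPM in Villin WT. The 12 stromal, endothelial and muscle markers summed to 78.9 and 82.4 CPM in AhCre KO against 169 and 172 CPM in AhCre WT, and to 191 and 219 CPM in Villin KO against 192, 30.3 and 32.2 CPM in Villin WT. The 11 markers of epithelium were present in every library. They summed to 8381 and 8033 CPM in AhCre KO against 7342 and 6681 CPM in AhCre WT. In Villin they summed to 24613 and 18158 CPM in KO against 12603, 10364 and 12189.5 CPM in WT, so that the sum was higher in KO in both drivers. Singly, 6 of the 11 were above all WT libraries in AhCre and 2 below (Vil1 and Elf3), beside 23.4% and 25.1% of all genes. In Villin 7 were above and 0 below, beside 14.5% and 19.8% of all genes.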

How the data were processed

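Each Smart-seq2 library was made from 2 ng of crypt RNA, per the labels' protocols, by a method that does not mark strand. The authors deposited raw read counts, 1 table per library and 9 in all. The submitters' processing notes name STAR 2.7, featureCounts, DESeq2 1.20, mm10 and GRCm38, and what each was used for is not given in the sources used here. Samples were grouped by the driver and genotype of their titles. The labels do not say whether replicates are separate animals, so the p-values measure only the spread between these libraries, which may be technical; replicates differed beyond sampling noise (chi-square per degree of freedom 8.21 to 66.8), and none was merged.

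With edgeR 4.0.16 (R 4.3.3), filterByExpr kept 16250 of 55341 genes, TMM scaled the libraries, and a single quasi-likelihood model with a mean for each of the 4 groups used all 9 libraries (5 residual degrees of freedom, biological coefficient of variation 0.332). The contrasts were KO minus WT in each driver, the mean of both KO effects, and the AhCre minus the Villin KO effect, each adjusted by Benjamini-Hochberg over all genes tested. Mean log2 CPM used a prior count of 2, and intervals are 95% intervals of the fit. The procedure was tested on simulated data. GENCODE M21 gave coordinates, exon lengths for RPKM and overlapping exons; 9 of the 33 genes share exon bases with another gene (Ddit3, Hsp90b1, Dnajb9, Manf, Pdia3, Pdia4, Pdia6, Syvn1 and Derl2), so that their counts are less certain. Promoter sequence was from RefSeq.

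The genes and lists were chosen with earlier results of these data known. All 33 genes are described; SE and adjusted p are given in full where the unadjusted p was under 0.05 or the gene was called. From the further lists the called genes are named, or, in a list without calls, the 2 with the smallest p for the mean of both effects. The deviations of same-numbered KO and WT libraries from their group means had correlations from -0.216 to 0.061. In a group of 2 libraries the deviations mirror each other, so these values cannot tell whether the numbers pair libraries. The main fit did not pair them. Tried as alternatives were the size factors and the Wald test of DESeq2 1.42.0, no filter on low counts, a filter of 1 CPM in 4 libraries, limma-voom with sample weights (limma 3.58.1), each driver fitted alone, a replicate block and the omission of each library; a block with the AhCre numbers crossed was added after seeing the data.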

Additional observations from a re-analysis of the deposited data

Results flagged for a closer look

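In 6 genes named above, every KO library lay above every WT library in Villin and below every WT library in AhCre, a pattern that 5.03% of all genes and 1 of the 33 showed. The 5 genes other than Ddit3 had been named because they were called as higher in Villin, so that side of the pattern was selected. The KO effect in AhCre minus that in Villin, tested directly with edgeR's quasi-likelihood test, was -1.11 on the log2 scale for Ddit3 (-0.30 in AhCre and 0.81 in Villin, adjusted p = 0.284), -1.89 for Creb3l3 (-0.54 in AhCre and 1.35 in Villin, adjusted p = 0.127) and -2.83 for Atf3 (-0.98 in AhCre and 1.85 in Villin, adjusted p = 0.146). It was -1.43 for Slc3a2 (adjusted p = 0.168), -1.40 for Sec23b (adjusted p = 0.194) and -1.92 for Sec24d (adjusted p = 0.146). No difference passed the threshold by edgeR in the fit of all libraries. By DESeq2 the difference was called for Atf3 (adjusted p = 0.0094), Creb3l3 (0.00177), Slc3a2 (0.0111) and Sec24d (0.0153), by limma-voom for Atf3 (0.0223) and Creb3l3 (0.0303), and by edgeR without a low-count filter for Atf3 (0.00162). These calls thus depend on the tool, and Ddit3 and Sec23b were called by none of them.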

How the results depend on the processing

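The counts of calls moved with the processing, and where no cause is named the cause was not tested. In Villin the 2 calls among the 33 genes became 4 without a low-count filter and 4 by DESeq2, 1 by limma-voom and 0 with the crossed replicate block, which was chosen after seeing the data; they stayed at 2 in number with the replicate block. The 1009 calls over all genes became 1591, 1732, 138 and 46 under those 4 settings, 259 with the Villin libraries alone and 300 with the replicate block, and the 9 calls of the further lists became 21 by DESeq2, 0 by limma-voom, 0 with Villin alone and 2 with either block. In AhCre the 0 calls among the 33 became 1 with the AhCre libraries alone, the 0 of the further lists became 5 there and 1 by limma-voom, and the 1 call over all genes became 137 without a filter, 73 by DESeq2, 911 by limma-voom and 1046 with AhCre alone. For the mean of both effects the 1 call among the 33 became 3 without a filter, 2 by DESeq2 and 0 with the stricter filter or with either block; over all genes 190 became 538 without a filter, 447 by DESeq2 and 48 with the crossed block, and in the further lists 0 became 2 without a filter, 1 by DESeq2 and 1 with the replicate block. For the difference between drivers the 0 calls among the 33 stayed 0 in every setting; the 12 over all genes became 340 without a filter, 378 by DESeq2, 144 by limma-voom and 0 with either block, and the 0 of the further lists became 1, 5 and 2 in the first 3 of these. Leaving out 1 library at a time gave 0 to 4 calls among the 33, 73 to 1949 over all genes and 0 to 18 in the further lists in Villin, and 0 to 0, 1 to 64 and 0 to 0 in AhCre. It gave 0 to 2, 2 to 757 and 0 to 5 for the mean and 0 to 0, 0 to 415 and 0 to 1 for the difference. Without Villin KO replicate 1 no member was called in Villin, and without Villin WT replicate 3 there were 4 (Trib3, Herpud1, P4hb and Dnajb9); Dnajb9 was also called without Villin KO replicate 2 and Sdf2l1 without Villin WT replicate 2. A left-out library also changes the spread that all contrasts share. The log2 fold change of Herpud1 in Villin was 1.55 to 1.79 over all settings (adjusted p 2.06e-06 to 0.0600) and that of Trib3 1.54 to 2.50 (adjusted p 4.25e-05 to 0.109); Dnajb9 in Villin ranged from -0.014 without Villin KO replicate 1 to 2.20 without Villin WT replicate 3. With 2 or 3 libraries in a group and counts of Derl3 and Chac1 as low as 0 to 49, small changes were not detectable at this depth.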
